A study of Mus musculus with 15 samples.

Results

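Jejunal epithelium that had lost both Brg1 and Apc was compared with control epithelium across all measured genes. The arrays of the comparison were set by genotype label and were 8 of the 15 arrays of the series, with 4 Brg1-Apc deficient and 4 control arrays, and 16592 genes read by 1 probe each. Brg1-Apc deficient mice were VillinCreERT2+ Apcfl/fl Brg1fl/fl, and control mice were VillinCreERT2-, that is, without Cre. The other arrays were 3 of Apc deficient epithelium (VillinCreERT2+ Apcfl/fl Brg1+/+) and 4 of Brg1 deficient epithelium (VillinCreERT2+ Brg1fl/fl), and were used to place the double loss beside each single one. Every group, controls included, was given tamoxifen at 80 mg/kg in 4 daily injections, and the tissue was taken on day 4. The Villin promoter drives Cre in the gut epithelium, and tamoxifen lets the CreERT2 protein enter the nucleus and delete floxed alleles. Because the controls lacked Cre, an effect of active Cre itself cannot be told apart from the loss of the 2 genes. The mucosa was scraped from the muscle wall, which enriches for epithelium without isolating it, and the floxed alleles of the controls, the strain, the sex and the age are not given in the labels.

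Apc is a scaffold of the complex that marks β-catenin for destruction, and without it β-catenin joins TCF/LEF factors on DNA and switches on Wnt target genes. In the small intestine Wnt signalling keeps stem and progenitor cells dividing in the crypts, whereas the villi carry absorptive enterocytes and the secretory goblet, enteroendocrine and tuft cells. Brg1, the protein made from Smarca4, is an ATPase of the SWI/SNF complexes, which slide and evict nucleosomes and so open chromatin to transcription factors.

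All values are log2 values as deposited, so that a difference of 1 is a 2-fold change, and the arrays' medians lay between 5.59 and 5.90. A group mean at or below 5.90 is called at background here, and the size of a change that reaches it is uncertain. This bound is the median of Brg1 deficient replicate 4, an array outside the comparison. The medians of the 8 compared arrays lay between 5.69 and 5.79. Across probes, arrays correlated at 0.951 to 0.973 within the Brg1-Apc deficient group, at 0.969 to 0.977 within the control group and at 0.916 to 0.956 between the groups. A list of 13 epithelial genes, among them Cdh1, Krt8, Cdx2 and Anpep, averaged 10.53 to 10.90 in Brg1-Apc deficient arrays and 10.996 to 11.145 in control arrays. Traces of other tissue were uneven among the controls. Smooth muscle genes averaged 5.96 to 7.09 in Brg1-Apc deficient arrays, against 9.03 in control replicate 1 and 6.41 to 7.57 in the other 3 controls. Pancreatic acinar genes averaged 6.14 to 6.32 in Brg1-Apc deficient arrays, against 10.50 in control replicate 4 and 6.06 to 6.24 in the other 3 controls. Calls against control are given below with the arrays whose omission ended them.

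The targeted genes were read first. Smarca4 stood at 6.04, 6.10, 6.16 and 6.04 in Brg1-Apc deficient replicates 1 to 4, against 7.73, 7.63, 7.35 and 7.51 in control replicates 1 to 4. The groups did not overlap, and the difference was -1.47 (SE 0.17, 2.77-fold lower, limma adjusted p = 8.67e-05). Apc stood at 6.44, 5.56, 6.47 and 5.65 in Brg1-Apc deficient arrays, against 7.39, 7.47, 6.54 and 6.56 in control arrays. The Apc arrays did not overlap either, but the difference of -0.96 did not pass the test (adjusted p = 0.24), and a second Apc probe differed by 0.44, in the opposite direction. Whether either Apc probe lies in the deleted stretch is not stated in the files, so Apc is not a check of the labels.

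Genes of crypt programmes were among the rises and genes of the villus among the falls in the Brg1-Apc deficient epithelium. Some Wnt targets such as Sp5, genes of DNA replication such as Mcm5 and genes that build ribosomes such as Polr1a rose, while some enterocyte genes for drug metabolism, nutrient transport and fat handling fell, such as Cyp3a25, Slc7a7 and Apoc3. The largest fall of all genes was that of the sialyltransferase St3gal4. Stem cell marker Olfm4, several Notch pathway genes, enteroendocrine hormones and genes of the interferon response and antigen presentation fell as well. Of 16592 genes, 1168 passed the test (limma, Benjamini-Hochberg adjusted p below 0.05), or 7.04% of all genes. They divided into 606 that rose (3.65%) and 562 that fell (3.39%), with a median difference of 1.03 among the rises and -1.20 among the falls, against 0.03 over all genes. The counts of list members below are to be read against these shares, and some lie near them. Large falls outnumbered large rises: 75 genes fell and 23 rose by more than 2 on the log2 scale, and 17 fell and 3 rose by more than 3. Changes of more than 2-fold passed for 734 genes (4.42%), of which 330 rose (1.99%) and 404 fell (2.43%). All 4 Brg1-Apc deficient arrays lay above all 4 control arrays for 1600 genes (9.64%) and below them for 1413 (8.52%), and 1130 genes (6.81%) showed such separation and also passed the test. The control mean was at background for 74 of the rises, and the Brg1-Apc deficient mean for 85 of the falls. The count moved past 1.5 times without single arrays, to 733 and 720 without Brg1-Apc deficient replicates 2 and 3 and to 762 and 712 without control replicates 1 and 4, and it was 292 with both of those controls left out.

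**Figure D1:**
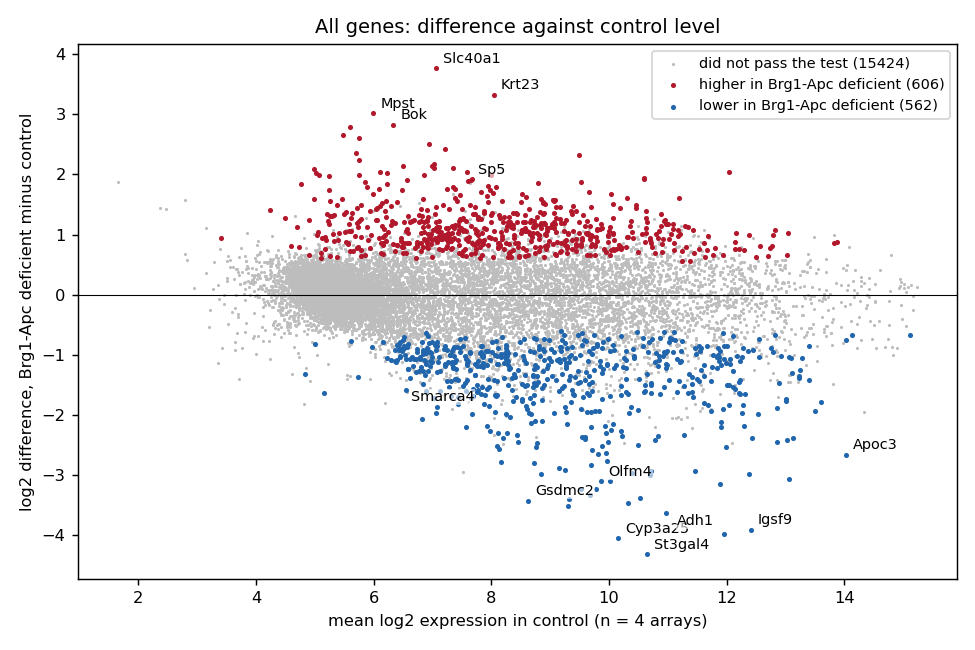
Difference between Brg1-Apc deficient and control jejunal epithelium (log2, vertical axis) against the mean level of each gene in the 4 control arrays (log2, horizontal axis) for 16592 genes, with the 606 genes that rose and the 562 that fell in colour. Falls reach further from 0 than rises, to -4.32 for St3gal4 against 3.77 for Slc40a1.

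Slc40a1 (ferroportin, the iron exporter of the enterocyte's basal side) showed the largest rise. It stood at 11.03, 9.81, 11.21 and 11.24 in Brg1-Apc deficient arrays, against 7.08, 7.30, 6.49 and 7.37 in control arrays. The lowest Brg1-Apc deficient array was far above the highest control, and the difference was 3.77 (13.6-fold, adjusted p = 0.00024). Of 12 iron genes measured, the other that passed was Aco1, the iron-responsive aconitase, which fell by 0.85 (adjusted p = 0.0148) and lost its call without Brg1-Apc deficient replicate 2 or without control replicate 1 or 4 (adjusted p 0.0508 to 0.0593).

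Krt23, an acidic keratin, stood at 11.31, 11.51, 11.71 and 10.95 in Brg1-Apc deficient arrays, against 8.31, 7.45, 8.07 and 8.33 in control arrays. All 4 mutant arrays lay more than 2 units above every control (difference 3.33, adjusted p = 7.52e-06). The adjacent genes Mpst and Tst, which encode the related sulfurtransferases mercaptopyruvate sulfurtransferase and rhodanese, were also among the largest rises. Mpst stood at 9.29, 9.76, 8.57 and 8.40 in Brg1-Apc deficient arrays, against 6.02, 5.89, 6.70 and 5.36 in control arrays (difference 3.01, 8.08-fold, adjusted p = 0.00212). Tst stood at 9.62, 10.28, 9.29 and 9.33 in Brg1-Apc deficient arrays, against 7.27, 7.46, 7.04 and 7.07 in control arrays (difference 2.42, 5.35-fold, adjusted p = 3.2e-05). For both genes the higher values were those of replicates 1 and 2, and neither overlapped the controls.

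The remaining large rises had varied functions. Bok, a pro-apoptotic member of the Bcl-2 family, rose by 2.83 (7.1-fold, adjusted p = 7.52e-06). Hapln4, a link protein that ties hyaluronan to proteoglycans, was at background in controls and rose by 2.66 (adjusted p = 0.000204). Msx1, a homeobox transcription factor, stood at 7.96, 9.53, 7.90 and 8.06 in Brg1-Apc deficient arrays, against 5.64, 5.55, 5.98 and 5.84 in control arrays. Replicate 2 was the highest of the Msx1 values, and the groups were well apart (difference 2.61, adjusted p = 0.000617). Nme4, a mitochondrial nucleoside diphosphate kinase, rose by 2.51, Fam162a, a mitochondrial protein, by 2.32, Epop, a partner of the Polycomb repressive complex PRC2 that was at background in controls, by 2.25 and Pmm1, a phosphomannomutase, by 2.18. None of the calls of the rises in this paragraph was lost when any 1 of the 8 arrays was left out.

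St3gal4, which adds sialic acid to the ends of glycan chains, showed the largest fall. It stood at 5.58, 8.69, 5.67 and 5.33 in Brg1-Apc deficient arrays, against 11.49, 10.32, 10.69 and 10.06 in control arrays. Brg1-Apc deficient replicate 2 kept a clear signal, whereas the other 3 were at background (difference -4.32, 20-fold, adjusted p = 0.000214). Adh1, the class I alcohol dehydrogenase, stood at 8.20, 7.11, 7.22 and 9.34 in Brg1-Apc deficient arrays, against 11.75, 12.15, 11.36 and 12.56 in control arrays (difference -3.99, 15.9-fold, adjusted p = 0.000843). Igsf9, a member of the immunoglobulin superfamily, stood at 8.65, 7.79, 8.06 and 9.49 in Brg1-Apc deficient arrays, against 12.46, 12.11, 12.99 and 12.08 in control arrays (difference -3.91, adjusted p = 4.04e-05). In all 3 genes every mutant array was lower than every control.

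Cyp3a25, a cytochrome P450 of drug metabolism, fell by 4.05 (16.5-fold), and its neighbour Cyp3a11 by 3.33 (10.1-fold, adjusted p = 0.0148). The Cyp3a11 call was lost without Brg1-Apc deficient replicate 2 or 3 or without control replicate 4 (adjusted p 0.0559 to 0.0599), and the signals of these related genes may not be fully separated by their probes. Slc28a1, a sodium-coupled transporter of pyrimidine nucleosides, stood at 5.64, 6.0, 5.56 and 5.94 in Brg1-Apc deficient arrays, against 9.89, 8.88, 9.53 and 8.94 in control arrays. Its 4 mutant values sat at or next to background (difference -3.52, adjusted p = 7.52e-06). Other falls of this size were those of C1qtnf12 (a secreted C1q-related protein, -3.64), Gdpd2 (a glycerophosphodiester phosphodiesterase, -3.46), Gsdmc2 (a gasdermin, -3.43, at background after the loss), Slc5a4a (of the sodium-glucose cotransporter family, -3.39), Nat8 (an N-acetyltransferase of cysteine conjugates, -3.39) and Rdh7 (a retinol dehydrogenase, -3.24).

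**Figure D2:**
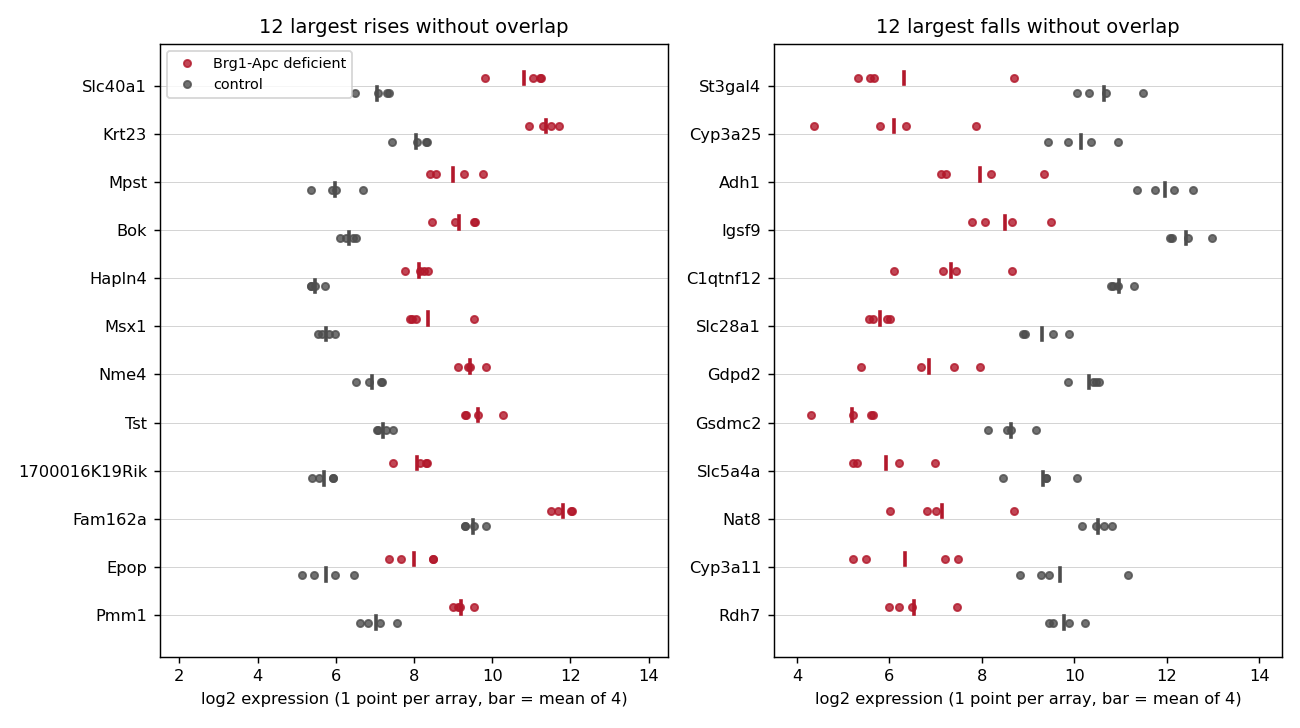
Level of the 12 largest rises and the 12 largest falls among genes that passed the test and whose groups did not overlap (log2, horizontal axis), with 1 point per array for Brg1-Apc deficient and control epithelium. The lack of overlap is part of the choice, which leaves out the rise of Defa31 by 2.79, and Brg1-Apc deficient replicate 2 stands apart from its group for Slc40a1 at 9.81, Msx1 at 9.53 and St3gal4 at 8.69.

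Wnt target genes rose in part. Of 28 measured, 6 rose and 0 fell, and their median difference was 0.27. Single omissions gave 5 to 6 rises, and leaving out both control replicates 1 and 4 gave 3. Sp5, a zinc-finger factor induced directly by Wnt signalling, stood at 9.31, 9.53, 9.85 and 9.57 in Brg1-Apc deficient arrays, against 7.90, 7.61, 7.79 and 7.31 in control arrays (difference 1.92, 3.77-fold, adjusted p = 0.0002). Tnfrsf19 (Troy, a receptor marking crypt base stem cells) stood at 6.52, 6.19, 6.61 and 7.08 in Brg1-Apc deficient arrays, against 5.82, 5.19, 5.25 and 4.93 in control arrays (difference 1.30, adjusted p = 0.00323). Neither gene overlapped between the groups, although the control mean of Tnfrsf19 was at background. Both promoters hold the TCF/LEF core ATCAAAG, as an illustration of where a TCF/LEF factor could bind. The core lies 98 to 104 bases upstream of the start in Sp5 and 196 to 202 in Tnfrsf19. It is shown in capitals (CTTTGAT on the other strand) in the following windows of 60 bases around it, from RefSeq on GRCm38.p6.
Sp5 (chr2:70474792-70474851, plus strand): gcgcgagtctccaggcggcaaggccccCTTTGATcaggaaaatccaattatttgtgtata
Tnfrsf19 (chr14:61038157-61038216, minus strand): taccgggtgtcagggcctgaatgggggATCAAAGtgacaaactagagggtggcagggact

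The core lay in the 250 bases before the start of 3 of 19 Wnt targets with a RefSeq promoter (15.8%), against 3.4% of the 13335 tested genes with one, and in 3.31% of all genes that rose and 2.38% of those that fell. These are matches of letters, searched on both strands, and not measured binding.

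The other Wnt targets that rose were Prox1, a homeobox factor, by 1.59 (adjusted p = 0.00179, control mean at background), Notum, a secreted Wnt inhibitor, by 1.24 (adjusted p = 0.0154, control mean at background), Cd44, a hyaluronan receptor, by 1.05 (adjusted p = 0.0147) and Ets2, an ETS factor, by 0.97 (adjusted p = 0.00439). Notum lost its call without Brg1-Apc deficient replicate 2 (adjusted p = 0.0537), and Cd44 without Brg1-Apc deficient replicate 3 or without control replicate 2 or 4 (adjusted p 0.0526 to 0.0597). The 5 other Cd44 probes differed by 0.06 to 0.46, and none passed. Axin2, the feedback inhibitor used widely as a Wnt reporter, stood at 11.12, 10.23, 11.25 and 11.31 in Brg1-Apc deficient arrays, against 10.21, 9.68, 10.67 and 9.54 in control arrays. Its groups overlapped and the difference of 0.95 did not pass (adjusted p = 0.102). Of 40 Wnt ligands, receptors and transducers, 1 fell (2.5%, against 3.39% of all genes) and 0 rose. The gene was Ctnnbip1, an inhibitor of the β-catenin and TCF interaction, which fell by 0.75 (adjusted p = 0.0127).

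Stem cell markers did not move as 1 group: of 22 measured, 5 rose (Tnfrsf19, Cd44, Igfbp4, Slc14a1 and Gkn3) and Olfm4 fell. Gkn3 was at background in both groups and Slc14a1 in controls, and the groups overlapped for Gkn3 and Igfbp4. Without single arrays 1 to 4 of the 5 rose, the count staying within 1.5 times only without Brg1-Apc deficient replicate 2. It was 3 each without replicates 1 and 4 of that group and 1 without replicate 3. Without control replicates 1 to 4 it was 3, 1, 2 and 3. The Igfbp4 call was lost without Brg1-Apc deficient or control replicate 2, 3 or 4 (adjusted p 0.0649 to 0.140). Slc14a1 lost its call without any array but control replicate 4 (adjusted p 0.0513 to 0.114). Gkn3 lost its call without Brg1-Apc deficient replicate 1 or 3 or without control replicate 1, 2 or 3 (adjusted p 0.0592 to 0.0799). Olfm4, a secreted glycoprotein of crypt base columnar cells and a Notch target, stood at 6.39, 6.70, 7.35 and 6.61 in Brg1-Apc deficient arrays, against 10.14, 10.30, 9.0 and 10.04 in control arrays. All mutant values were lower than all controls (difference -3.11, SE 0.46, 8.61-fold, adjusted p = 0.000662), and the call held with any array left out. In bulk tissue, fewer cells of a type and less RNA per cell cannot be told apart, here and for every cell type below.

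Lgr5, a receptor that marks crypt base columnar stem cells, stood at 5.67, 5.99, 6.24 and 5.92 in Brg1-Apc deficient arrays, against 6.09, 6.16, 5.77 and 6.07 in control arrays. The groups overlapped (difference -0.07, SE 0.24, adjusted p = 0.94), and both means lay close to background. Ascl2, a stem cell transcription factor, differed by 0.26 (adjusted p = 0.676). Of the 17 genes of the fetal-like and regeneration list, Tnfrsf12a, the TWEAK receptor, rose by 2.10 (adjusted p = 0.006), the alarmin Il33 rose by 1.21 and the annexin Anxa3 fell by 1.25 (adjusted p = 0.00896). The Il33 call (adjusted p = 0.0337) was lost without Brg1-Apc deficient replicate 2, 3 or 4 or without control replicate 2, 3 or 4 (adjusted p 0.0741 to 0.117).

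The Notch pathway, through which secretory cells hold back the same fate in their neighbours, had 5 falls and 1 rise among 30 genes. The ligand Dll1 stood at 5.57, 5.88, 5.75 and 5.80 in Brg1-Apc deficient arrays, against 7.79, 8.07, 7.84 and 8.01 in control arrays. All mutant values were at background (difference -2.18, 4.52-fold, adjusted p = 2.02e-05). Among receptors and their modifiers, Notch4 fell by 1.59 (adjusted p = 0.00167) and Rfng, a fringe glycosyltransferase that modifies Notch, by 1.18 (adjusted p = 0.00433).

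Among the targets, Nrarp, which feeds back on the pathway, stood at 7.20, 6.96, 7.44 and 7.65 in Brg1-Apc deficient arrays, against 9.39, 9.30, 8.97 and 9.42 in control arrays (difference -1.96, 3.89-fold, adjusted p = 0.000295). The repressor Hes1 fell by 1.33 (adjusted p = 0.0264), a call lost without Brg1-Apc deficient replicate 1 or 2 or without control replicate 1, 2 or 4 (adjusted p 0.0501 to 0.0853). Hes6, which opposes Hes1, rose by 1.32 (adjusted p = 0.000506), although 1 of its 2 other probes differed by -0.13. Atoh1, the factor that sets secretory fate, was at background in both groups (4.87 ± 0.26 and 4.79 ± 0.31 in Brg1-Apc deficient and control arrays, SD, n = 4 each).

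The enteroendocrine list split between its progenitor factor and its hormones. Of 29 genes, 7 fell (24.1%) and 1 rose. Neurog3, the factor that commits progenitors to the endocrine fate, stood at 8.14, 8.84, 8.61 and 8.37 in Brg1-Apc deficient arrays, against 7.0, 6.79, 6.45 and 6.05 in control arrays (difference 1.91, 3.77-fold, adjusted p = 0.00355). Cck, the hormone cholecystokinin, stood at 6.0, 7.08, 7.05 and 6.42 in Brg1-Apc deficient arrays, against 8.41, 9.32, 8.79 and 8.42 in control arrays (difference -2.10, 4.29-fold, adjusted p = 0.00024). Neither gene overlapped between groups, and they moved in opposite directions.

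Other endocrine products that fell were Chga (chromogranin A of the secretory granule, -1.34), Ghrl (ghrelin, -1.35), Gcg (proglucagon, -1.73), Scg2 (secretogranin II, -1.05) and Sst (somatostatin, -1.02), with Isl1, a factor of maturing endocrine cells (-1.06). Scg2 and Isl1 were at background in the mutants. Gcg (adjusted p = 0.019) lost its call without Brg1-Apc deficient replicate 1, 2 or 4 or without control replicate 2 or 4 (adjusted p 0.0501 to 0.0611), and Sst (adjusted p = 0.0234) without Brg1-Apc deficient replicate 2 or 3 or without control replicate 2 or 4 (adjusted p 0.0696 to 0.0873). Leaving out single arrays gave 5 to 7 falls in the list.

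Goblet, Paneth and tuft cell markers mostly did not pass. Of 18 goblet markers, 2 fell and 1 rose: Klk1, a kallikrein, fell by 1.78 (adjusted p = 0.00155), Clca1, a secreted protein of mucus, by 1.93 (adjusted p = 0.0204), and Guca2a, the guanylin hormone, rose by 0.88 (adjusted p = 0.0213). The Clca1 call was lost without Brg1-Apc deficient replicate 2 or 3 or without control replicate 1 or 3 (adjusted p up to 0.0691), and that of Guca2a without Brg1-Apc deficient replicate 1, 2 or 4 or without control replicate 1 or 2 (adjusted p 0.0522 to 0.0799). Of 13 Paneth markers 1 passed: the α-defensin Defa31 stood at 8.85, 8.89, 5.43 and 10.38 in Brg1-Apc deficient arrays, against 5.09, 6.89, 5.07 and 5.36 in control arrays. Replicate 3 of the mutants was at background and overlapped the controls, and the rise of 2.79 (adjusted p = 0.0497) was lost without Brg1-Apc deficient replicate 1, 2 or 4 or without control replicate 1, 3 or 4 (adjusted p 0.115 to 0.147). Lyz1, the Paneth cell lysozyme, averaged 14.38 ± 0.57 in Brg1-Apc deficient arrays and 14.39 ± 0.79 in control arrays (SD, n = 4 each). Of 18 tuft markers, Fyb, an adaptor protein of immune cells that tuft cells also express, fell by 0.91 (adjusted p = 0.0107), and Dclk1 differed by -0.42 (adjusted p = 0.311).

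The G1/S and DNA replication list leaned towards rises, with 10 rises and 0 falls among 33 genes (30.3%) and a median difference of 0.63. Single omissions gave 7 to 9 rises, and leaving out both control replicates 1 and 4 gave 3. The count was 4 on slide 1 alone and 0 on slide 2 alone. Mcm5, of the helicase that unwinds DNA at origins, stood at 11.33, 12.23, 11.65 and 11.58 in Brg1-Apc deficient arrays, against 9.99, 10.06, 9.86 and 10.19 in control arrays (difference 1.67, 3.19-fold, adjusted p = 0.00274). E2f1, a transcription factor of S-phase entry, stood at 8.95, 9.78, 8.94 and 9.01 in Brg1-Apc deficient arrays, against 7.82, 7.88, 7.84 and 7.34 in control arrays (difference 1.45, adjusted p = 0.00825). Neither overlapped between groups, and replicate 2 was the highest mutant array for both.

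Cdt1, which loads the helicase, rose by 1.34 (adjusted p = 0.00242), Rrm2, of the reductase that makes deoxynucleotides, by 1.31 (adjusted p = 0.000779) and Chaf1b, a histone chaperone, by 1.33 (adjusted p = 0.0158). The Chaf1b call was lost without Brg1-Apc deficient replicate 2 or without control replicate 3 or 4 (adjusted p 0.0502 to 0.0623). Mcm2, Mcm4, Cdc6, Rrm1 and Rfc4 also rose, by 0.96 to 1.20, with Cdc6 at background in controls. Rrm1 lost its call under the omission of any of the 8 arrays (adjusted p 0.0549 to 0.116) and Mcm4 without Brg1-Apc deficient replicate 1 or 3 or without control replicate 1, 3 or 4 (adjusted p 0.0528 to 0.0637). By contrast, 0 of 30 genes of G2/M and mitosis passed in either direction with limma, and their median difference was 0.13. Whether the G1/S and G2/M lists differ was not tested.

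Ribosome biogenesis had the most rises of the 55 lists. Of 33 genes, 15 rose (45.5%) and 0 fell, with a median difference of 0.95. Polr1a, the largest subunit of RNA polymerase I, stood at 10.34, 11.14, 10.72 and 10.25 in Brg1-Apc deficient arrays, against 9.29, 9.02, 9.04 and 8.81 in control arrays (difference 1.57, 2.97-fold, adjusted p = 0.00283). Every mutant array exceeded every control. Heatr1, a processome protein, rose by 1.45 (adjusted p = 0.00461), Mybbp1a, a nucleolar MYB-binding protein, by 1.35 (adjusted p = 0.0066) and Gar1, of the particles that pseudouridylate rRNA, by 1.28 (adjusted p = 0.00825). The rises in this list also included Ncl, Nop2, Rrp1b, Tcof1, Ubtf and Wdr75. Of these, Rrp1b (adjusted p = 0.0491) was lost under the omission of any 1 control or of Brg1-Apc deficient replicate 2 or 3 (adjusted p 0.0749 to 0.136), and in 5 other settings that used all arrays of the comparison (adjusted p 0.0510 to 0.0539). Ubtf was lost without Brg1-Apc deficient replicate 1, 2 or 3 or without control replicate 1, 2 or 4 (adjusted p 0.0508 to 0.0837), Wdr75 without Brg1-Apc deficient replicate 2 or 3 or without control replicate 2 or 3 (adjusted p 0.0504 to 0.0711) and Tcof1 without control replicate 2 (adjusted p = 0.0501). The count depended on single arrays: it was 7 and 8 without Brg1-Apc deficient replicates 2 and 3, 8 without control replicate 4, 10 to 14 without each of the others, and 1 without both control replicates 1 and 4. Myc, a Wnt target that drives ribosome production, was at background in both groups (5.20 ± 0.50 in Brg1-Apc deficient and 5.49 ± 0.14 in control arrays, SD, n = 4 each).

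Nucleotide and polyamine synthesis showed smaller sets of rises. Of 29 purine, pyrimidine and folate genes, 6 rose and 1 fell. Ppat, the first committed enzyme of purine synthesis, rose by 1.35 (adjusted p = 0.00261, control mean at background), Shmt2, which feeds mitochondrial folate with carbon units from serine, by 1.11 (adjusted p = 0.00956), and Ctps, which makes CTP, by 1.20 (adjusted p = 0.0165). Xdh, xanthine dehydrogenase of purine breakdown, fell by 1.98 (adjusted p = 0.0118). The count of rises was 3 without control replicate 3, and Ctps was lost without that array or Brg1-Apc deficient replicate 3 (adjusted p 0.0570 to 0.0588). One of the other Ctps probes differed by -0.11, and the most variable one by 1.04 (adjusted p = 0.0591).

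Among 24 genes of arginine, proline and polyamine metabolism, Srm, spermidine synthase, rose by 1.62 (3.08-fold, adjusted p = 0.00349), while its most variable probe differed by 0.21 (adjusted p = 0.901). Gamt, which makes creatine, stood at 8.78, 8.75, 7.51 and 7.53 in Brg1-Apc deficient arrays, against 6.26, 5.98, 6.10 and 6.07 in control arrays (difference 2.04, 4.12-fold, adjusted p = 0.000624). The Gamt values of replicates 1 and 2 were above those of replicates 3 and 4, which lay on the other slide, and all 4 exceeded the controls. Of 26 CDK inhibitors and p53 targets, 2 rose and 2 fell (7.69% each, against 3.65% and 3.39% of all genes). Cdkn1a, the cell cycle inhibitor p21, fell by 1.15 (adjusted p = 0.00325), with all 4 mutant arrays (10.61 to 11.21) lower than the controls (11.97 to 12.23), although its most variable probe (-1.27) did not pass (adjusted p = 0.241). Cdkn2b, the inhibitor p15, fell by 0.74 (adjusted p = 0.0209). Plk2, a polo-like kinase, rose by 0.98 (adjusted p = 0.0156, control mean at background), and Bbc3, the pro-apoptotic PUMA, by 0.92 (adjusted p = 0.0191). Cdkn2b lost its call without Brg1-Apc deficient replicate 3 or 4 or without control replicate 1 or 3 (adjusted p 0.0502 to 0.0621). Plk2 lost its call without Brg1-Apc deficient replicate 3 or without control replicate 1 (adjusted p 0.0613 to 0.0615), and Bbc3 without Brg1-Apc deficient replicate 1, 2 or 3 or without control replicate 4 (adjusted p 0.0506 to 0.0625).

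Xenobiotic metabolism had the most falls of the 55 lists. Of 62 genes, 21 fell (33.9%) and 2 rose, with a median difference of -0.82. Single omissions gave 14 to 21 falls, and leaving out both control replicates 1 and 4 gave 9. Beside Cyp3a25, Adh1 and Nat8, the falls included Aldh1a1, a retinaldehyde dehydrogenase, which stood at 6.41, 5.88, 3.67 and 5.58 in Brg1-Apc deficient arrays, against 7.81, 8.49, 7.49 and 8.88 in control arrays. The Aldh1a1 mean of the mutants was at background (difference -2.78, adjusted p = 0.0107). The glutathione transferases were divided: Gstm1 and its neighbour Gstm2 fell by 1.97 and 2.39, whereas Gsta4 rose by 1.39 (adjusted p = 0.0168) and Gstm5 by 0.86 (adjusted p = 0.0152). Gsta4 lost its call without Brg1-Apc deficient replicate 1 or 2 (adjusted p 0.0503 to 0.0581) and Gstm5 without replicate 2 (adjusted p = 0.0573). Nqo1, a quinone reductase and NRF2 target, fell by 2.39 on its brighter probe (5.22-fold, adjusted p = 4.35e-05), to background in the mutants, while its other probe differed by 0.17. Blvrb, biliverdin reductase B, rose by 1.60 (adjusted p = 0.000843).

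Absorptive genes fell in part. Of 37 nutrient and ion transporters, 9 fell (24.3%) and 0 rose, and single omissions gave 7 to 9. Slc7a7, a basolateral carrier of cationic amino acids, stood at 9.10, 7.96, 9.21 and 9.47 in Brg1-Apc deficient arrays, against 11.24, 11.51, 11.27 and 11.07 in control arrays (difference -2.33, 5.04-fold, adjusted p = 0.00186). Slc15a1, the peptide transporter PEPT1, stood at 6.45, 6.93, 6.64 and 6.74 in Brg1-Apc deficient arrays, against 9.05, 8.67, 8.57 and 8.40 in control arrays (difference -1.98, 3.96-fold, adjusted p = 0.00843). Both were lower in every mutant array. Slc5a11, a sodium-coupled inositol carrier, fell by 2.45 and Slc7a8, a neutral amino acid exchanger, by 2.54.

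For fat absorption, 6 of 29 genes fell and 0 rose, with 3 falls without Brg1-Apc deficient replicate 2 or 3 or without control replicate 3. Apoc3, an apolipoprotein of chylomicrons, stood at 12.21, 10.27, 11.35 and 11.63 in Brg1-Apc deficient arrays, against 13.70, 13.72, 14.32 and 14.37 in control arrays (difference -2.66, 6.33-fold, adjusted p = 0.00367). Replicate 2 was the lowest mutant array, and none reached the controls. Cideb, which helps load lipid onto these particles, fell by 1.66 (adjusted p = 0.0013). Npc1l1, the cholesterol uptake protein targeted by ezetimibe, fell by 1.83 (adjusted p = 0.0205), a call lost without Brg1-Apc deficient replicate 2 or 3 or without control replicate 1 or 3 (adjusted p 0.0504 to 0.0655). The 18 genes of cholesterol synthesis and uptake had 0 calls with limma, and 1 of 44 oxidative phosphorylation genes fell (2.27%, against 3.39% of all genes). That gene, Cox6a1, of respiratory complex IV, fell by 0.75 (adjusted p = 0.0202), and lost its call without Brg1-Apc deficient replicate 2, 3 or 4 or without control replicate 2 or 4 (adjusted p 0.0507 to 0.0737).

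Of 18 brush border hydrolases, 3 fell and 0 rose. Xpnpep2, an aminopeptidase, fell by 2.38 (adjusted p = 0.0114). The other falls, Dnase1 (-2.99, adjusted p = 0.0284) and Nt5e (-2.64, adjusted p = 0.0299), were each lost under the omission of any of 6 arrays (adjusted p up to 0.110). The count was 1 without Brg1-Apc deficient replicate 2 or 3 or without control replicate 1, 2 or 4. Sis, sucrase-isomaltase, which digests sucrose and starch, stood at 14.56, 12.82, 13.95 and 14.68 in Brg1-Apc deficient arrays, against 14.59, 14.90, 14.93 and 15.13 in control arrays. These overlapped, and the difference of -0.89 did not pass (adjusted p = 0.227). Of 19 genes of brush border structure, Baiap2l2, a membrane-bending protein of microvilli, fell by 2.83 (7.12-fold, adjusted p = 6.38e-05) and the actin bundler Vil1 by 1.35 (adjusted p = 0.0362). The Vil1 call was lost without Brg1-Apc deficient replicate 2, 3 or 4 or without control replicate 1, 2 or 3 (adjusted p 0.0742 to 0.123).

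Bile acid genes moved in both directions. Nr1h4, the bile acid receptor FXR, stood at 11.81, 11.96, 11.75 and 11.90 in Brg1-Apc deficient arrays, against 10.66, 10.34, 11.06 and 10.53 in control arrays (difference 1.21, adjusted p = 0.00132). Abcc3, an exporter of conjugated bile acids, stood at 7.54, 7.79, 8.04 and 8.54 in Brg1-Apc deficient arrays, against 10.52, 9.93, 11.16 and 10.33 in control arrays (difference -2.51, 5.69-fold, adjusted p = 0.000173). Neither overlapped. In fatty acid and sugar metabolism Acot1, an acyl-CoA thioesterase, rose by 1.71 (adjusted p = 0.000675) and Acads, the short-chain acyl-CoA dehydrogenase, by 1.37 (adjusted p = 0.00458, but 0.38 and 0.951 on its other probe), whereas Cpt2, of the mitochondrial carnitine shuttle, fell by 1.0 (adjusted p = 0.00999) and Hkdc1, a hexokinase-like protein, by 1.43 (adjusted p = 0.00024).

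Interferon and antigen presentation genes included falls and 0 rises. Of 32 interferon-stimulated genes 4 fell, with a list median of -0.39. Igtp, a GTPase that acts against intracellular pathogens, stood at 11.74, 10.58, 10.53 and 9.59 in Brg1-Apc deficient arrays, against 13.29, 12.96, 13.38 and 12.48 in control arrays (difference -2.42, 5.34-fold, adjusted p = 0.0015). Gbp2, a guanylate-binding protein, stood at 8.31, 8.42, 7.69 and 7.25 in Brg1-Apc deficient arrays, against 10.78, 9.96, 9.71 and 9.84 in control arrays (difference -2.16, 4.46-fold, adjusted p = 0.00416), with 1 of its 2 other probes differing in the opposite direction. Stat2, which carries the type I interferon signal to DNA, stood at 7.19, 6.27, 7.13 and 7.10 in Brg1-Apc deficient arrays, against 8.59, 8.87, 8.95 and 8.46 in control arrays (difference -1.79, 3.47-fold, adjusted p = 0.00798). None of the 3 overlapped between groups. Their promoters (RefSeq, GRCm38.p6) are shown because each holds an interferon response pattern, GAAA, any 2 bases and then GAAA, on either strand, given in capitals.
Igtp (chr11:58199496-58199555, plus strand): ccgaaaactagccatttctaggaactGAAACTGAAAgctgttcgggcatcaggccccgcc
Gbp2 (chr3:142620579-142620638, plus strand): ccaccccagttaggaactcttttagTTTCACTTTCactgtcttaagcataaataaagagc
Stat2 (chr10:128270251-128270310, plus strand): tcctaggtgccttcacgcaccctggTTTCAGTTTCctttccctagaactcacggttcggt

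The pattern was found in 12 of 23 interferon-stimulated genes with a promoter (52.2%), against 3.62% of all tested genes with one. It was in 3.67% of all genes that fell and 2.72% of those that rose. Ddx58, the RNA sensor RIG-I, fell by 1.52 (adjusted p = 0.0241), and lost its call without Brg1-Apc deficient replicate 2, 3 or 4 or without control replicate 1, 2 or 3 (adjusted p 0.0504 to 0.0732).

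Of 10 class II antigen presentation genes 4 fell, with a list median of -0.86. Ciita, the coactivator that switches on class II genes, stood at 7.54, 7.84, 7.01 and 8.11 in Brg1-Apc deficient arrays, against 9.81, 9.25, 9.30 and 9.75 in control arrays (difference -1.90, 3.74-fold, adjusted p = 0.000263). Its groups did not overlap, and the call held with any array left out. H2-Aa, a class II α chain, stood at 9.45, 8.44, 9.32 and 9.76 in Brg1-Apc deficient arrays, against 10.87, 10.52, 11.002 and 10.47 in control arrays (difference -1.47, adjusted p = 0.0183). H2-Eb1, a class II β chain, stood at 12.30, 11.44, 11.69 and 12.54 in Brg1-Apc deficient arrays, against 13.21, 13.24, 13.42 and 13.11 in control arrays (difference -1.25, adjusted p = 0.0261). Neither overlapped, and the promoters of these neighbouring genes both hold the Y box CTGATTGG (capitals), the element through which class II genes bind the factor NF-Y.
H2-Aa (chr17:34287841-34287900, minus strand): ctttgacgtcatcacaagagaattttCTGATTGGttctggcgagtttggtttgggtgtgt
H2-Eb1 (chr17:34305779-34305838, plus strand): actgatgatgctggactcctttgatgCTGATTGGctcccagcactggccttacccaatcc

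The Y box occurred, on either strand, in 3 of 7 class II genes with a RefSeq promoter (42.9%) and in 5.3% of all tested genes with one. It was also in 5 of 16 class I genes (31.2%) and in 8 of 29 genes of the G1/S list (27.6%), which had 0 falls. Among all genes it was in 6.26% of those that fell and 3.5% of those that rose. H2-DMa, which edits class II peptides, fell by 1.03 (adjusted p = 0.0451). The class II calls other than that of Ciita were lost with single arrays left out, H2-Aa without Brg1-Apc deficient replicate 2 or without control replicate 1 or 3 (adjusted p 0.0553 to 0.0699), H2-Eb1 without Brg1-Apc deficient replicate 2 or 3 or any 1 control (0.0542 to 0.0945) and H2-DMa without Brg1-Apc deficient replicate 1, 2 or 3 or without control replicate 1, 2 or 3 (0.0829 to 0.137). The list then held 1 to 5 falls, with 1 without Brg1-Apc deficient replicate 2 or without control replicate 1 or 3, and 2 without Brg1-Apc deficient replicate 3 or without control replicate 2. Macrophage and dendritic cell genes, which accompany class II expression, averaged 5.81 to 6.15 in Brg1-Apc deficient arrays and 6.13 to 6.58 in control arrays. Of 15 measured, 14 had a negative difference and 1 passed, C1qc, which fell by 1.54 (adjusted p = 0.0299). The C1qc call was lost without Brg1-Apc deficient replicate 1 or 4 or without control replicate 1, 2 or 4 (adjusted p 0.0634 to 0.110). Without control replicate 3 the list had 3 falls. The part of these cells in the class II result was not tested.

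In class I presentation 3 of 22 genes fell, with a median of -0.84 and 1 fall without control replicate 1. Tap1, which carries peptides into the endoplasmic reticulum, stood at 9.05, 8.41, 8.68 and 8.15 in Brg1-Apc deficient arrays, against 10.73, 10.06, 10.90 and 10.24 in control arrays (difference -1.91, 3.77-fold, adjusted p = 0.00494). Its neighbour Psmb9, a subunit of the immunoproteasome, fell by 1.20 (adjusted p = 0.0152), which was lost without control replicate 1 (adjusted p = 0.0595). The Tap1 groups did not overlap. T cell and intraepithelial lymphocyte genes averaged 7.08 to 7.76 in Brg1-Apc deficient arrays and 7.22 to 8.26 in control arrays, with 0 of 17 called, and their part was not tested.

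Among 26 epithelial defence genes 5 fell and 1 rose. Reg3a, a bactericidal lectin, stood at 7.73, 9.17, 8.78 and 9.30 in Brg1-Apc deficient arrays, against 12.15, 11.90, 11.89 and 11.63 in control arrays (difference -3.15, 8.86-fold, adjusted p = 0.000138). Reg1, a related lectin, stood at 7.44, 7.12, 8.59 and 7.94 in Brg1-Apc deficient arrays, against 10.19, 10.97, 9.64 and 12.02 in control arrays (difference -2.93, 7.64-fold, adjusted p = 0.00224). Neither overlapped between groups. Their relatives did not pass: Reg3g differed by 0.35 (adjusted p = 0.842) and Reg3b by 0.16 (adjusted p = 0.833). Ccl25, the chemokine that draws lymphocytes to the small intestine, fell by 2.39 (5.23-fold, adjusted p = 0.00426, but 0.246 on its most variable probe), and the membrane mucin Muc4 by 1.41 (adjusted p = 0.0037).

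Some transcription factors of other developmental programmes rose. Of 36 such genes 5 rose and 1 fell, most of the list being at background in both groups. Beside Msx1, Foxq1, a forkhead factor, stood at 10.11, 9.19, 9.38 and 9.85 in Brg1-Apc deficient arrays, against 7.20, 8.20, 6.70 and 8.26 in control arrays (difference 2.04, 4.11-fold, adjusted p = 0.00434). Sox17, an endoderm factor, stood at 6.98, 7.12, 5.79 and 6.54 in Brg1-Apc deficient arrays, against 3.63, 4.61, 5.52 and 5.28 in control arrays, where it was at background (difference 1.84, adjusted p = 0.00796). Neither overlapped between groups. Of 25 intestinal transcription factors, 3 fell and 0 rose: Nr1h3, the oxysterol receptor LXRα, by 1.61 (adjusted p = 0.00106), Hnf4g, an enterocyte factor, by 1.01 (adjusted p = 0.0114), and the vitamin D receptor Vdr by 0.85 (adjusted p = 0.0274), the last lost without Brg1-Apc deficient replicate 1, 2 or 3 or without control replicate 1 or 4 (adjusted p 0.0676 to 0.0946).

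Few other subunits of the SWI/SNF complexes passed the test. Of 19 subunits besides Smarca4, 2 rose and 0 fell, namely Arid2, the DNA-binding subunit of the PBAF form, by 0.96 (adjusted p = 0.0225) and Smarcd2 by 0.79 (adjusted p = 0.0483). Leaving out any 1 array brought the count to 0 or 1: Arid2 was lost without Brg1-Apc deficient replicate 1 or 4 or without control replicate 1, 2 or 4 (adjusted p 0.0501 to 0.0768) and Smarcd2 without any array but Brg1-Apc deficient replicate 1 (0.0609 to 0.134). Smarca2, the ATPase that can take the place of Brg1, stood at 8.59, 8.57, 8.29 and 8.81 in Brg1-Apc deficient arrays, against 9.20, 8.90, 9.39 and 9.42 in control arrays. These did not overlap, but the difference of -0.66 did not pass (adjusted p = 0.0923).

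Among 40 other chromatin genes, Prmt5, an arginine methyltransferase, rose by 1.85 (3.62-fold, adjusted p = 0.0002), Dnmt3b, a DNA methyltransferase, by 1.27 (adjusted p = 0.000835) and Eed, a core subunit of PRC2, by 1.09 (adjusted p = 0.000993). The acetyltransferase Kat2b differed by -0.94 (adjusted p = 0.0318) and the demethylase Kdm6b by -0.68 (adjusted p = 0.0374), and both calls were lost under the omission of any of 7 arrays (adjusted p up to 0.116). Kat2b was at background in the mutants, and the most variable Kdm6b probe differed by -0.26 (adjusted p = 0.821). Of the immediate early and heat shock genes, Egr1, a growth-induced zinc-finger factor, rose by 1.80 (adjusted p = 0.000834) and Ier3 by 1.51 (adjusted p = 0.0037). Of 33 junction and adhesion genes, Cldn23 rose by 1.18 (adjusted p = 0.00461) and Lamb3, a chain of laminin-332, fell by 1.86 (adjusted p = 0.00204). None of the 18 circadian genes and none of the 6 reserve stem cell markers passed with limma.

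**Figure D3:**
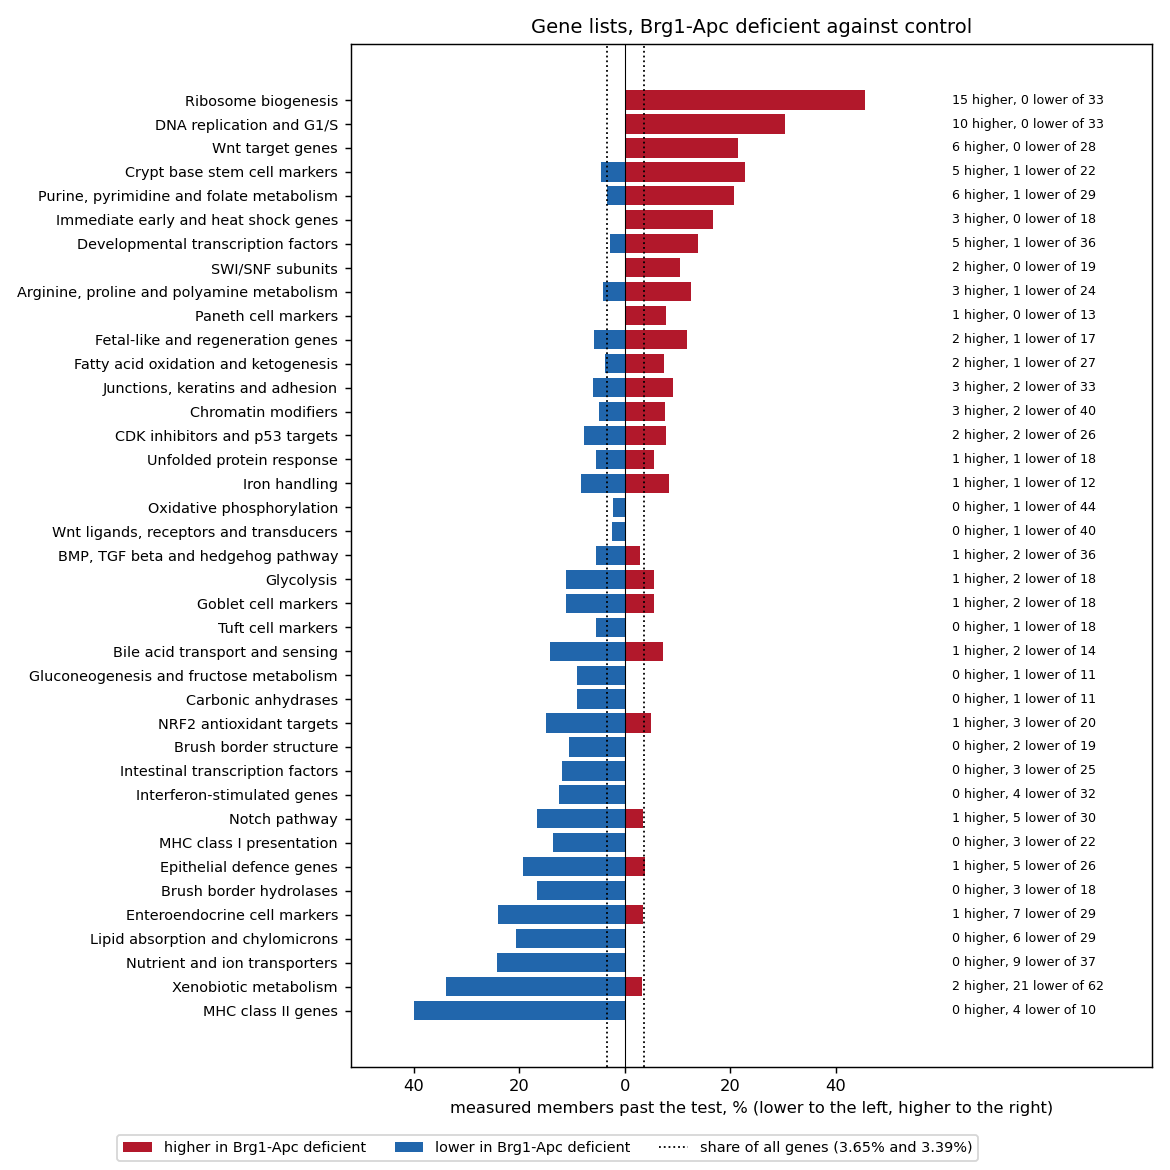
Share of measured members (percent, horizontal axis) that rose or fell in Brg1-Apc deficient against control epithelium, for the gene lists of epithelial programmes with at least 1 call, with falls drawn to the left, rises to the right and dotted lines at the shares over all genes. Ribosome biogenesis (15 of 33) and G1/S genes (10 of 33) have the largest counts of rises, and xenobiotic metabolism (21 of 62) the largest count of falls.

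The double loss was then set beside each single loss, with the same fit. Against Apc deficient epithelium 1296 genes passed, or 7.81% of all genes, with 650 higher (3.92%) and 646 lower (3.89%). Against Brg1 deficient epithelium 1074 passed (6.47%), with 917 higher (5.53%) and 157 lower (0.946%). All 3 comparisons share the 4 Brg1-Apc deficient arrays, so their results are not independent. The count against Apc deficient was 465 and 823 without Apc deficient replicates 2 and 1 and 783 without Brg1-Apc deficient replicate 4. The count against Brg1 deficient was 702 without Brg1-Apc deficient replicate 3. It was 1624 without Brg1 deficient replicate 4, with 1059 higher and 565 lower, so the split by direction depended on that array. Its values had the narrowest spread of the 15 arrays, with an interquartile range of 1.23 against 1.89 to 2.56 in the others.

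Several stem cell and Wnt genes were lower with both genes lost than with Apc lost alone. Of the 28 Wnt targets 8 were lower and 0 higher than in Apc deficient arrays, and 9 higher and 0 lower than in Brg1 deficient arrays. Olfm4 averaged 6.76 in Brg1-Apc deficient, 11.61 in Apc deficient, 6.29 in Brg1 deficient and 9.87 in control arrays, and its difference from Apc deficient was -4.85 (adjusted p = 2.84e-05). Lgr5 averaged 5.96 in Brg1-Apc deficient, 7.79 in Apc deficient, 5.91 in Brg1 deficient and 6.02 in control arrays (-1.83 against Apc deficient, adjusted p = 0.000362). Myc differed from Apc deficient by -1.93 (adjusted p = 0.00115) and Ascl2 by -1.34 (adjusted p = 0.00519). Sp5 by contrast averaged 9.57 in Brg1-Apc deficient, 9.97 in Apc deficient, 6.04 in Brg1 deficient and 7.65 in control arrays, and differed by -0.40 from Apc deficient (adjusted p = 0.432) and by 3.53 from Brg1 deficient (adjusted p = 1.07e-06).

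Proliferation lists lay between the single losses. Relative to Apc deficient arrays 5 of 33 G1/S genes, 3 of 30 G2/M genes and 6 of 33 ribosome biogenesis genes were lower and none higher, while relative to Brg1 deficient arrays 21, 12 and 19 were higher and none lower. Absorptive lists went the other way against Apc deficient arrays: 8 of 18 hydrolases, 11 of 37 transporters and 10 of 29 fat absorption genes were higher and none lower. Sis, for example, averaged 14.003 in Brg1-Apc deficient, 11.94 in Apc deficient, 14.59 in Brg1 deficient and 14.89 in control arrays, and exceeded Apc deficient by 2.06 (adjusted p = 0.00644). Of 32 interferon-stimulated genes, 17 were lower and 1 higher than in Apc deficient arrays, and 3 lower and 0 higher than in Brg1 deficient arrays.

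Of the 1350 genes (8.14% of 16592) that were higher in Apc deficient than in control arrays, 396 were lower in Brg1-Apc deficient than in Apc deficient arrays, and of the 1176 (7.09%) lower in Apc deficient arrays, 433 were higher in Brg1-Apc deficient arrays. Both of these tests contain the same 3 Apc deficient arrays on opposite sides, so a chance deviation in them moves both. The mean differences against control do not use those arrays, but their p-values share an estimate of the spread with them. The genes given next were also picked by Apc deficient against control, so a chance deviation in the control arrays moves both. Atg9b, an autophagy protein, averaged 7.27 in Brg1-Apc deficient, 10.56 in Apc deficient, 5.33 in Brg1 deficient and 5.78 in control arrays, and exceeded control by 1.49 (adjusted p = 0.0013). Etv4, an ETS factor, averaged 6.90 in Brg1-Apc deficient, 9.19 in Apc deficient, 5.42 in Brg1 deficient and 5.62 in control arrays, and exceeded control by 1.28 (adjusted p = 0.00515). Car4, a membrane carbonic anhydrase, averaged 11.21 in Brg1-Apc deficient, 7.91 in Apc deficient, 12.38 in Brg1 deficient and 12.15 in control arrays, and differed from control by -0.93 (adjusted p = 0.46). Asah2, neutral ceramidase of the brush border, averaged 12.17 in Brg1-Apc deficient, 8.98 in Apc deficient, 12.76 in Brg1 deficient and 13.34 in control arrays, and differed from control by -1.18 (adjusted p = 0.0861).

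A small set passed in the same direction against all 3 other groups, 16 genes higher and 8 lower. Maged2, a MAGE family protein, stood at 9.53, 9.22, 9.54 and 9.55 in Brg1-Apc deficient arrays, against 7.55, 7.41, 7.25 and 7.18 in control arrays. It exceeded control by 2.11, Apc deficient by 1.0 and Brg1 deficient by 1.52 (adjusted p = 7.52e-06, 0.00465 and 0.000123). Tlcd1 exceeded them by 2.14, 1.06 and 1.15, and Neu2, a cytosolic sialidase, by 1.79, 1.03 and 1.11. Among the lower genes, Dll1 differed by -2.18, -0.99 and -0.85, in the same order of groups. Helz2, a helicase coactivator induced by interferon, differed by -1.47, -1.23 and -1.10, Unc93b1, which delivers nucleic acid-sensing Toll-like receptors to endosomes, by -1.45, -0.89 and -0.98, and Stat2 by -1.79, -1.67 and -1.33.

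A few genes were high in both groups without Brg1. Hapln4 averaged 8.14 in Brg1-Apc deficient, 5.38 in Apc deficient, 9.69 in Brg1 deficient and 5.48 in control arrays, and was 1.56 lower in Brg1-Apc deficient than in Brg1 deficient arrays (adjusted p = 0.00891). Blvrb averaged 11.91 in Brg1-Apc deficient, 10.27 in Apc deficient, 12.02 in Brg1 deficient and 10.31 in control arrays. Krt23 was high in both groups without Apc, with 11.37 in Brg1-Apc deficient, 12.19 in Apc deficient, 7.77 in Brg1 deficient and 8.04 in control arrays. Slc28a1 was close to background in all 3 mutant groups, at 5.79 in Brg1-Apc deficient, 5.31 in Apc deficient and 5.73 in Brg1 deficient arrays, against 9.31 in control arrays. Several of the largest falls were also present after each single loss. St3gal4 differed from control by -3.44 in Apc deficient and -4.96 in Brg1 deficient arrays, and Cyp3a25 by -3.91 and -4.76. Adh1 differed by -3.19 and -4.06 in that order. Gdpd2 fell less in Brg1 deficient arrays, to 9.08 from 10.32 in control arrays. The class II medians against control were -1.05 and -1.02, and 0 of 10 class II genes passed between Brg1-Apc deficient arrays and either single loss.

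**Figure D4:**
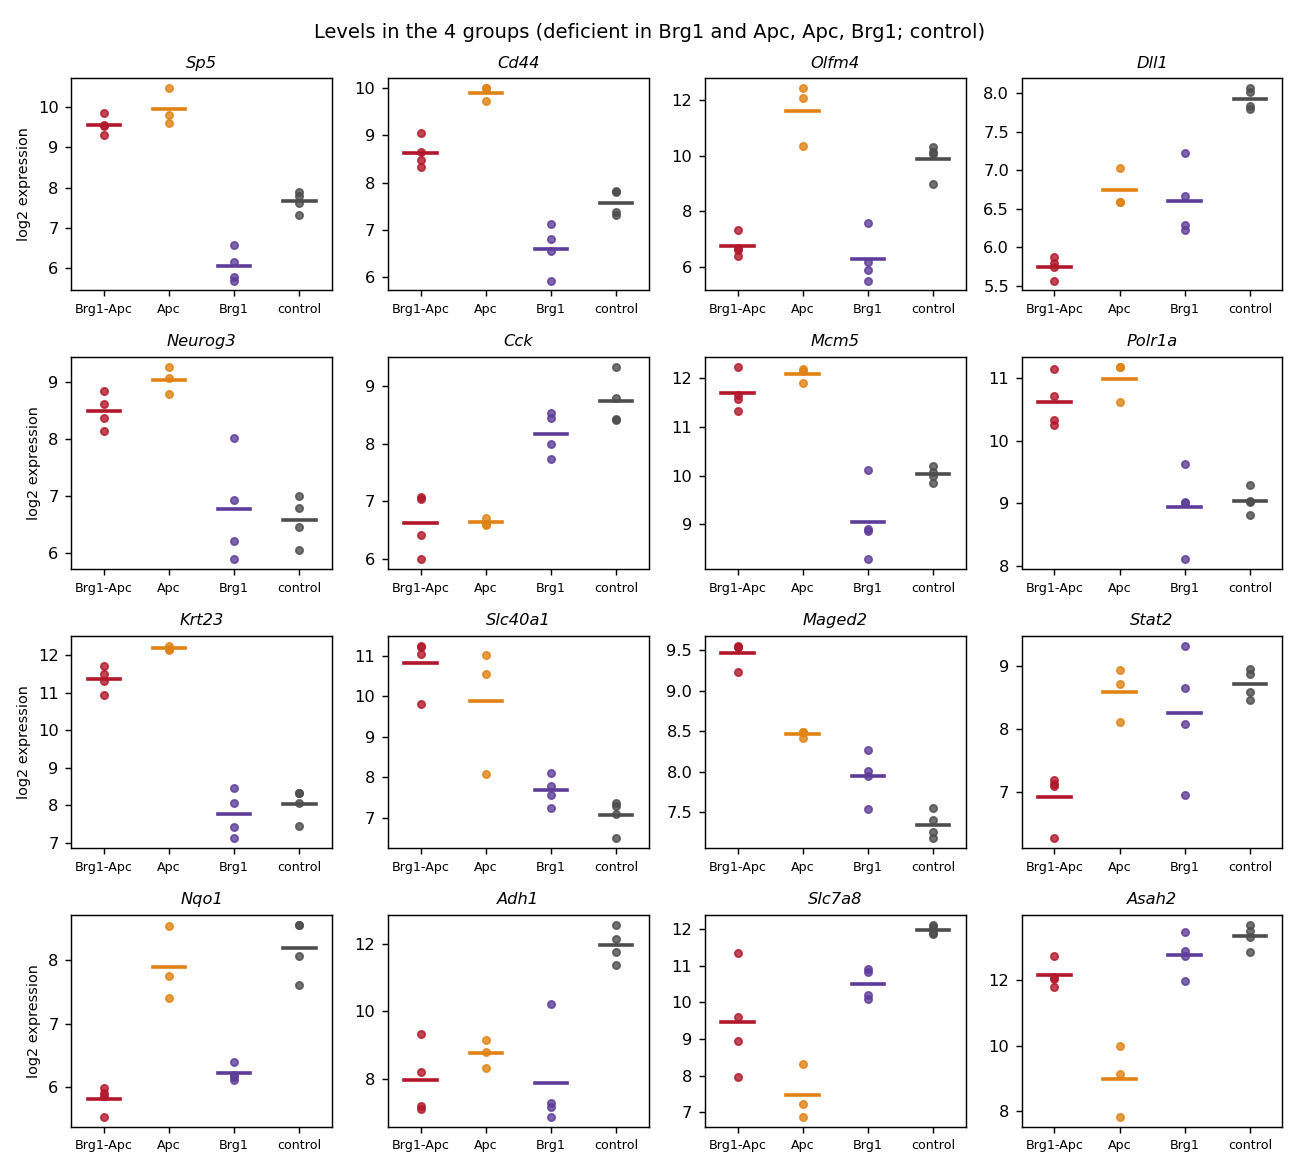
Level of selected genes (log2, vertical axes) in Brg1-Apc deficient, Apc deficient, Brg1 deficient and control arrays, with 1 point per array and a line at each group mean. Among the 16 genes, Olfm4 shows high values in Apc deficient and control arrays and low values in the 2 groups without Brg1.

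Neighbouring genes on the chromosomes were counted as a description, with no test. A neighbouring measured gene also rose for 63 of the 606 rises (10.4%), against 6.97% of the genes that did not rise. A neighbouring measured gene also fell for 63 of the 562 falls (11.2%), against 6.41% of those that did not fall. Pairs in which both genes are named above include Mpst and Tst, Wdr75 and Slc40a1, Cyp3a11 and Cyp3a25, Gstm1 and Gstm2, H2-Aa and H2-Eb1, and Psmb9 and Tap1. In windows 10 Mb wide in total, centred on the start of each targeted gene, 6 of 102 measured genes near Smarca4 (5.88%) and 8 of 133 near Apc (6.02%) passed, beside 7.04% of all genes.

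Markers of other cells that a scrape can hold differed little by the test but leaned lower. Fibroblast and matrix genes averaged 5.99 to 6.48 in Brg1-Apc deficient arrays and 6.33 to 7.27 in control arrays, with 1 of 15 called and 4 called without control replicate 3. The call was a fall of Col6a1, a collagen VI chain, by 2.34 (adjusted p = 0.0321), whose groups overlapped and which was lost without Brg1-Apc deficient replicate 1, 3 or 4 or without control replicate 1, 2 or 4 (adjusted p 0.0720 to 0.107) and under quantile normalization. Endothelial genes averaged 5.36 to 5.96 in Brg1-Apc deficient arrays and 5.47 to 6.54 in control arrays, with 0 of 12 called and 3 falls without control replicate 3. Smooth muscle and acinar genes had 0 of 11 and 0 of 14 called, although 4 smooth muscle genes passed without control replicate 3, and the acinar median was 0.00 on slide 1 and -2.24 on slide 2, which holds control replicate 4. Myh11 of smooth muscle, Pecam1 and Cdh5 of endothelium, Col1a2 and Col3a1 of fibroblasts, and Ms4a1 and Jchain of B lineage cells were at background in Brg1-Apc deficient arrays, and all of these but Myh11 and Pecam1 also in control arrays. Other members of these lists were above background. In control arrays these were 10 of 15 fibroblast, 7 of 12 endothelial, 8 of 11 smooth muscle and 6 of 11 B lineage genes. In Brg1-Apc deficient arrays they were 6, 2, 4 and 3 in that order. Lists for mast cells, neurons, red cells, adipocytes and B or plasma cells had 0 calls. The part of these cells in the results above was not tested.

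**Figure D5:**
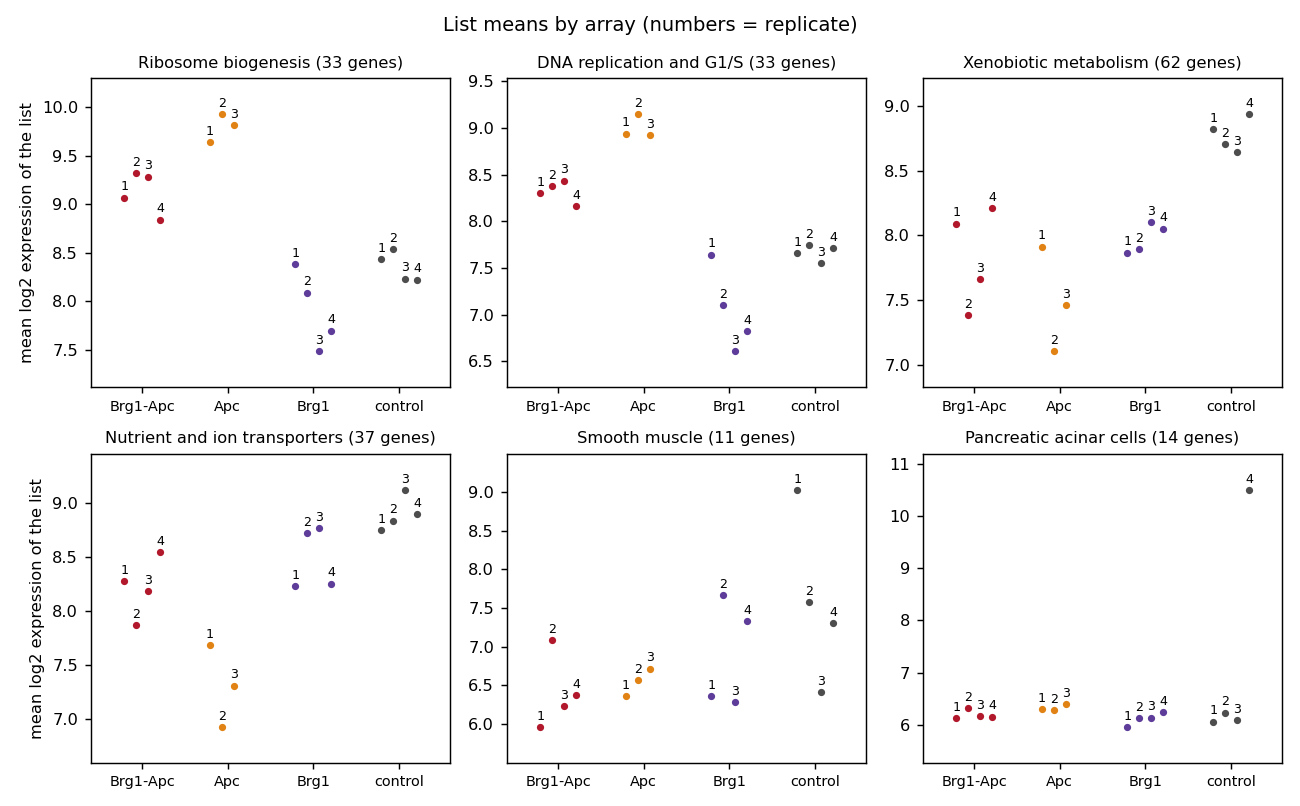
Mean level of the measured members of 6 gene lists (log2, vertical axes) in each array of the Brg1-Apc deficient, Apc deficient, Brg1 deficient and control groups, with points numbered by replicate. Control replicate 1 stands highest for smooth muscle at 9.03 and control replicate 4 for acinar genes at 10.50, while ribosome biogenesis lies at 8.84 to 9.32 in Brg1-Apc deficient arrays and at 8.22 to 8.54 in control arrays.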

How the data were processed

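Total RNA of scraped jejunal mucosa was labelled and hybridised to 1-colour Illumina bead arrays, 1 array per sample, per the labels' protocols. The table deposited by the authors holds log2 expression values of 25695 probes on 15 arrays, with 0 missing values and 46 values below 0, and its background correction and normalization are not given in the sources used here. The values were used without further scaling, so that an undetected upstream step would carry into every difference. Array data give no read depth, so precision is set by how many arrays each group has.

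The comparison, its members and the gene lists were chosen with earlier results of these data known, and arrays entered it by genotype label. Probes were named through the platform annotation, 23976 with 1 gene symbol and 1719 without, and for each of 16592 genes the brightest probe on average across all 15 arrays was used. limma 3.58.1 in R 4.3.3 was fitted (lmFit, eBayes) to all probes with a mean per group, which leaves 11 residual degrees of freedom, and p-values were adjusted by the Benjamini-Hochberg method over all probes at a threshold of 0.05. No filter on low values was applied. Where the labels do not say that arrays of a group came from separate animals, p-values measure the spread between these samples.

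The genes given were Smarca4 and Apc, the 12 largest rises and falls that passed without overlap, up to 5 rises and 5 falls of each of 55 lists (1180 of 1356 genes measured), the largest changes shared against all other groups or opposed to those of Apc deficient arrays, and the 5 brightest genes with a change over 2-fold. Genes outside that rule (Lgr5, Ascl2, Axin2, Myc, Ets2, Atoh1, Lyz1, Dclk1, Sis, Reg3b, Reg3g, Smarca2 and the remaining list members) were added for their known roles or because their list's count named them, after their values were seen. Promoters came from RefSeq (GRCm38.p6), matched by gene identifier for 13335 genes. A gene was counted as holding a pattern if any of its promoter entries did. Python 3.11.15 with pandas 2.3.3 and matplotlib 3.10.9 drew tables and figures. The fit was tested in 5 simulations with normal, independent noise and known changes in 200 of 25695 probes. It recovered 45.2% of changes of 1 and 93% of changes of 2 on the log2 scale, and 5.47% of its calls were false. A gene that did not pass may therefore still have changed 2-fold. The real data may hold more changed genes and other noise than the simulated data. Replicate numbers were not treated as pairs in the main fit. Same-numbered Brg1-Apc deficient and control arrays correlated in their deviations from the group mean at -0.00489, -0.00220, -0.0347 and 0.0752. Differently numbered ones correlated at -0.0881 to 0.0688. These values cannot exclude pairing. Alternatives were slide or replicate as a block, each slide alone, other scalings, other probe choices, array weights, only the 2 groups compared, and leaving out arrays.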

Additional observations from a re-analysis of the deposited data

Results flagged for a closer look

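In 26 of 432 sets of 4 arrays (216 genes, in Brg1-Apc deficient and in control arrays), 1 array lay far from the other 3 by Dixon's test, and chance alone gives about 1 such set in 20. Brg1-Apc deficient replicate 2 was the array named for 7 of these sets, the most of any. It was low for Slc40a1 at 9.81, Maged2 at 9.22 and Stat2 at 6.27, and high for Msx1 at 9.53, St3gal4 at 8.69, Sox21, an SRY-related factor, at 7.17 and E2f1 at 9.78. Brg1-Apc deficient replicate 4 was low for the Paneth protease Mmp7 at 5.39, the mitotic activator Cdc20 at 9.80 and the digestive protease Ctrl at 6.35, and high for the metabolic coactivator Ppargc1a at 10.02 and the alkaline sphingomyelinase Enpp7 at 9.42. Brg1-Apc deficient replicate 1 was low for Uqcrc1, of respiratory complex III, at 13.14.

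Among the controls, replicate 1 was high for Acot1 at 8.27, and replicate 2 was high for Defa31 at 6.89 and the NRF2 target Osgin1 at 9.46 and low for Baiap2l2 at 9.19. Control replicate 3 was low for Cpt2 at 11.68, the exporter Abcc2 at 10.55, the collagen gene Col6a1 at 6.67, the endothelial gene Emcn at 5.23 and the amino acid carrier Slc1a4 at 5.41. Control replicate 4 was high for Nt5e at 11.26 and for Ctrl at 9.98, and low for Vil1 at 12.73 and E2f1 at 7.34, and it is the array with the high acinar signal.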

How the results depend on the processing

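The count of 1168 genes against control was 1286 with slide and 1214 with the replicate block (1085 shared), 460 on slide 1 alone, 9 on slide 2 alone, 1970 from only the 2 groups, 2128 with array weights, 712 to 975 with 1 array left out, and 292 without control replicates 1 and 4. The count of 1296 against Apc deficient was 1274 with slide and 1120 with the replicate block, 1 on slide 2 alone, where 1 Apc deficient array stands alone, 2101 with array weights, and 465 to 1132 with 1 array left out. The count of 1074 against Brg1 deficient was 1133 with slide and 1046 with the replicate block, 508 on slide 1 alone, 226 on slide 2 alone, 461 from only the 2 groups, and 702 to 1624 with 1 array left out. Slides alone and omissions use fewer arrays, and the cause of the other shifts was not tested. Quantile normalization gave 61.2% of the calls against control as rises in place of 51.9%, and 73.7% against Brg1 deficient in place of 85.4%. Of 216 named genes, 169 no longer passed on slide 2 alone, 77 on slide 1 alone, 99 without both controls, 13 under quantile normalization, 4 with the replicate block and 26 to 49 with 1 array left out. Signs turned only for genes near 0 at background: Hbb-bt (0.00993 on slide 1 alone), Mcpt4 (-0.0557 on slide 2 alone and -0.00948 without control replicate 1, up to 0.435 without control replicate 4) and Tpsab1 (0.00385 on slide 2 alone). With 4 arrays a group the number of arrays limits what can be called, and the size of a change that reaches background is uncertain.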

Other observations

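The 5 genes with the highest control means among those that fell more than 2-fold against control were Apoc3, Gstp1, Clca1, Cldn15 and Rnaset2b. Gstp1, a glutathione transferase, stood at 12.73, 10.83, 12.18 and 11.49 in Brg1-Apc deficient arrays, against 13.62, 13.82, 13.27 and 13.66 in control arrays (difference -1.78, limma adjusted p = 0.0355), and its call was lost under the omission of any array but Brg1-Apc deficient replicate 1 (adjusted p 0.0584 to 0.124). Cldn15, the claudin that forms sodium pores, fell by 1.41 (adjusted p = 0.0293), a call lost without Brg1-Apc deficient replicate 1, 2 or 3 or without control replicate 1, 2 or 3 (adjusted p 0.0657 to 0.0897). Rnaset2b, a lysosomal ribonuclease, stood at 12.29, 11.74, 12.45 and 12.46 in Brg1-Apc deficient arrays, against 13.25, 13.18, 13.64 and 13.07 in control arrays (difference -1.05, adjusted p = 0.0119). The groups did not overlap for Gstp1 or Rnaset2b.

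In the BMP, TGFβ and hedgehog list, 2 of 36 genes fell (5.56%, against 3.39% of all genes) and 1 rose (2.78%, against 3.65%). Tgfbi, a matrix protein induced by TGFβ, fell by 1.51 (adjusted p = 0.0104, but 0.0635 on its most variable probe), and Smo, the hedgehog signal transducer, rose by 0.82 (adjusted p = 0.0116), with 1 of its 2 other probes at -0.02. Ihh, the hedgehog ligand of enterocytes, fell by 1.10 (adjusted p = 0.0402), a call lost under the omission of any array but Brg1-Apc deficient replicate 4 (adjusted p 0.0766 to 0.127). Car9, a carbonic anhydrase, fell by 1.27 (adjusted p = 0.0107).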
